A study of Homo sapiens with 9 samples.

Results

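The 52 genes described here carry out or control mitosis, and they were read in HCT116 colon cancer cells induced to express an isoform of TIG1 (gene symbol RARRES1). The members were taken from a list of mitotic cyclins, kinases, checkpoint proteins, kinesins, kinetochore proteins and their regulators. Each gene was represented by 1 probe set, the one with the highest mean log2 signal over the 9 arrays. All 52 members were on the array, among 19775 genes with a probe set. All 52 also passed the filter on dim probe sets, and none of them lay below the array median throughout a group. The other genes against which they were read were the 13353 genes whose brightest probe set passed the same filter.

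The study used 3 kinds of stable GeneSwitch cells derived from HCT116, a human colon carcinoma line. TIG1A cells carried an inducible vector for the isoform of 294 amino acids, TIG1B cells carried one for the isoform of 228 amino acids, and control cells carried the empty pGene/V5 vector. All 3 kinds also carried pSwitch, which encodes the regulatory protein that mifepristone (MFP) activates, and all 9 samples received 5 nM MFP for 24 h, the controls included. Each kind of cell was 1 stable clone with 3 samples, so isoform and clone cannot be told apart, and p-values measure the spread between samples of a clone. RNA was hybridised to HG-U133 Plus 2.0 arrays, and no array of uninduced cells was analysed here.

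Signal intensities were those of the deposited table, scaled by the authors to the same trimmed mean of 500.1 on every array, and the array medians lay between 59.9 and 73.9. The induced gene was read as its label states. RARRES1, on its brightest probe set, measured 66754, 58452 and 63438 in TIG1A cells, 44513, 37082 and 36413 in TIG1B cells, and 4.65, 2.90 and 5.17 in control cells. Of 10 epithelial markers 8 passed the filter, EPCAM, CDH1 and the keratins KRT8, KRT18 and KRT19 among them. The intestinal genes CDX2, VIL1 and LGALS4 passed it with low signal, whereas CDX1 and CDH17 did not pass. Over the 9 arrays CDX2 ranged from 37.1 to 265, VIL1 from 8.4 to 89.1 and LGALS4 from 26.4 to 122. The summed signal of these 10 markers ranged from 108022 to 121497 in TIG1A cells, from 105601 to 137446 in TIG1B cells and from 118909 to 131275 in control cells. Single markers moved apart within that sum. KRT19 lay between 11150 and 11781 in TIG1A, 10368 and 12022 in TIG1B, and 17461 and 18688 in control cells. On every TIG1A array KRT8 was below (13481 to 18873 against 22701 to 25875) and CDH1 above (6023 to 6961 against 3850 to 4806) every control array. EPCAM and KRT18 overlapped between these groups. The 6 fibroblast markers summed to between 1439 and 1855 in TIG1A cells, between 986 and 1090 in TIG1B cells and between 592 and 931 in control cells. COL1A1 made up most of each sum. The other 5 fibroblast markers did not pass the filter, and neither did PTPRC, CD14, LYZ, CDH5 or VWF. CD3E, of T cells, passed it with 35.5, 35.5 and 45.4 in TIG1A cells, 49.9, 61.7 and 79.5 in TIG1B cells, and 78.6, 72.0 and 54.2 in control cells. PECAM1, of endothelium, passed it with 80.4, 104 and 77.4 in TIG1A cells, 102, 126 and 157 in TIG1B cells, and 222, 143 and 139 in control cells. Both were thus lower on every TIG1A array than on every control array. The 4 leukocyte markers summed to between 56.0 and 68.6 in TIG1A cells, between 93.2 and 210.4 in TIG1B cells and between 121.7 and 190.3 in control cells, and the 3 endothelial markers to between 92.8 and 141.2 in TIG1A cells, between 121.7 and 177.9 in TIG1B cells and between 168.8 and 244.4 in control cells. Whether other cells had a part in the results below was not tested.

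Mitosis is driven by CDK1 bound to cyclins A and B, which the CDC25 phosphatases switch on. Aurora and Polo-like kinases then assemble the spindle, on which kinesin motors and kinetochores move the chromosomes. The spindle checkpoint holds the anaphase-promoting complex back until every kinetochore is attached. That complex, with CDC20, marks securin and cyclin B for destruction, and separase then cuts the cohesin that joins sister chromatids. The mRNAs of many, though not all, of these proteins accumulate in G2 and M phase. In dividing cells FOXM1, B-MYB and the MuvB complex activate many of them, and the DREAM complex represses them in resting cells, partly through a promoter element called the cell-cycle genes homology region (CHR).

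Mitosis genes were lower in TIG1A cells than in control cells, by a modest amount that was shared by most of the list. Of the 52 members, 12 fell and 0 rose in TIG1A cells relative to control cells (limma with Benjamini-Hochberg adjustment over all probe sets kept, adjusted p under 0.05). The 12 are 23.1% of the members, beside 3.62% of all genes called lower and 3.39% called higher in the same comparison. The log2 difference was below 0 for 50 of the 52 members and for 52.2% of all genes. The median was −0.40 over the members and −0.03 over all genes, and it was 0.02 over genes at or above the 75th percentile of their arrays. The middle 50% of members lay between −0.58 and −0.25, against −0.39 and 0.30 for all genes. In bulk RNA, fewer cells in G2 and M phase and less RNA per such cell cannot be told apart.

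Many members were lower by a small amount. In 39 members all 3 TIG1A arrays lay below all 3 control arrays, as they did in 17.9% of all genes. An unadjusted p under 0.05 with a lower value in TIG1A cells was found for 29 members, or 55.8%, beside 14.5% of all genes. Yet only 3 members, or 5.77%, were lower by 2-fold or more, where 6.52% of all genes had a log2 difference of −1 or less.

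**Figure D1:**
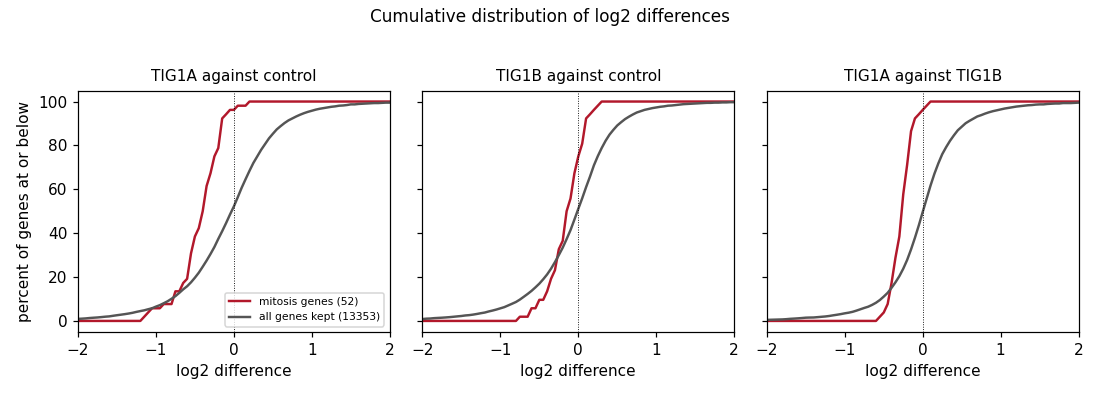
Cumulative percentage of genes (vertical axis) at or below each log2 difference (horizontal axis), for the 52 mitosis genes in red and all 13353 genes kept in grey, in each of the 3 comparisons. In TIG1A against control cells the red curve reaches 96.2% at a difference of 0, where the grey curve is at 52.2%, while at −1 the red curve (5.77%) lies close to the grey one (6.52%).

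The 12 genes that fell came from all 11 roles into which the list was divided, 2 from the spindle checkpoint and 1 from each other role. Their fold changes lay between 1.49-fold and 2.29-fold. CCNA2 encodes cyclin A2, the partner of CDK2 in S phase and of CDK1 at entry into mitosis. Its signal was 2749, 2817 and 2360 in TIG1A cells, 4373, 3968 and 3498 in TIG1B cells, and 5767, 6428 and 5935 in control cells. The 3 groups did not overlap, with TIG1B cells between the others. CCNA2 was 2.29-fold lower in TIG1A cells than in control cells (log2 difference −1.20 ± 0.14 SE, adjusted p = 0.00992 from limma), the strongest call of the list.

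FOXM1, the forkhead transcription factor that activates many mitotic genes, was next in size. It measured 758, 616 and 567 in TIG1A cells, 927, 866 and 919 in TIG1B cells, and 1045, 1655 and 1576 in control cells. Control replicate 1 was well below its group, though still above every array of both induced lines. FOXM1 was 2.18-fold lower in TIG1A cells than in control cells (log2 difference −1.12 ± 0.21, adjusted p = 0.0272). CDC25B, a phosphatase that activates CDK1 at the centrosome, measured 2124, 1587 and 1196 in TIG1A cells, 2240, 1830 and 1963 in TIG1B cells, and 3544, 3651 and 2984 in control cells. It was 2.12-fold lower in TIG1A cells (−1.09 ± 0.22, adjusted p = 0.0341), although TIG1A and TIG1B arrays overlapped.

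PLK1, the Polo-like kinase of mitotic entry, centrosomes and cytokinesis, was the kinase that fell. It measured 1595, 1548 and 1446 in TIG1A cells, 1826, 1833 and 1896 in TIG1B cells, and 2401, 2855 and 2718 in control cells. The replicates of each group lay close together and no groups overlapped. PLK1 was 1.73-fold lower in TIG1A cells than in control cells (−0.79 ± 0.12, adjusted p = 0.0175). ESPL1, the separase that cleaves cohesin at anaphase, measured 893, 755 and 886 in TIG1A cells, 978, 995 and 1024 in TIG1B cells, and 1327, 1590 and 1440 in control cells. Both induced lines were below every control array, and ESPL1 was 1.72-fold lower in TIG1A cells (−0.78 ± 0.13, adjusted p = 0.0219).

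In cytokinesis, ANLN encodes anillin, the scaffold of the contractile ring. Its signal was 4016, 4011 and 3711 in TIG1A cells, 5021, 5564 and 5618 in TIG1B cells, and 6876, 6616 and 6310 in control cells, again in 3 groups that did not overlap. ANLN was 1.69-fold lower in TIG1A cells than in control cells (−0.75 ± 0.12, adjusted p = 0.0184). KIF23, a kinesin of the central spindle needed for abscission, measured 754, 1163 and 1084 in TIG1A cells, 1159, 1516 and 1565 in TIG1B cells, and 1942, 1849 and 1778 in control cells. TIG1A replicate 1 and TIG1B replicate 1 were each the lowest array of their group. KIF23 was 1.89-fold lower in TIG1A cells than in control cells (−0.92 ± 0.20, adjusted p = 0.0421).

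The spindle checkpoint gave 2 of the 12. BUB1B, which encodes BubR1 of the mitotic checkpoint complex, measured 3075, 3261 and 3568 in TIG1A cells, 4229, 4553 and 4316 in TIG1B cells, and 5461, 5734 and 4826 in control cells. MAD2L1, the checkpoint protein that captures CDC20, measured 6919, 8169 and 7353 in TIG1A cells, 8767, 9565 and 8736 in TIG1B cells, and 10763, 11393 and 11459 in control cells. In both genes TIG1B cells lay between the other groups with no overlap on these probe sets. A second bright probe set of MAD2L1 differed, with 10001, 8259 and 8311 in TIG1B cells and 7771, 7876 and 8322 in control cells, which overlapped. On it the log2 difference from control cells was −0.30 in TIG1A cells (adjusted p = 0.226 from limma) and 0.14 in TIG1B cells. BUB1B was 1.62-fold lower (−0.69 ± 0.13, adjusted p = 0.0284) and MAD2L1 1.50-fold lower (−0.59 ± 0.12, adjusted p = 0.0379) in TIG1A cells than in control cells.

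The remaining 3 belong to the kinetochore, the chromosomal passenger complex and spindle assembly. NDC80, which binds microtubules at the kinetochore, measured 1683, 1730 and 1604 in TIG1A cells, 2285, 2012 and 1823 in TIG1B cells, and 2536, 2655 and 2676 in control cells. It was 1.57-fold lower in TIG1A cells than in control cells (−0.65 ± 0.13, adjusted p = 0.033). CDCA8, or borealin, targets Aurora B to centromeres, and it measured 1816, 1779 and 1822 in TIG1A cells, 2381, 2136 and 2092 in TIG1B cells, and 2473, 2771 and 2850 in control cells. CDCA8 had the smallest fold of the 12, 1.49-fold (−0.58 ± 0.12, adjusted p = 0.0392). TPX2, the activator of Aurora A on the spindle, measured 4711, 4065 and 3999 in TIG1A cells, 6318, 4866 and 5272 in TIG1B cells, and 6241, 7504 and 6480 in control cells. TPX2 was the weakest call, 1.58-fold lower in TIG1A cells (−0.66 ± 0.16, adjusted p = 0.0494), and the only one of the 12 whose TIG1B arrays overlapped those of control cells.

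**Figure D2:**
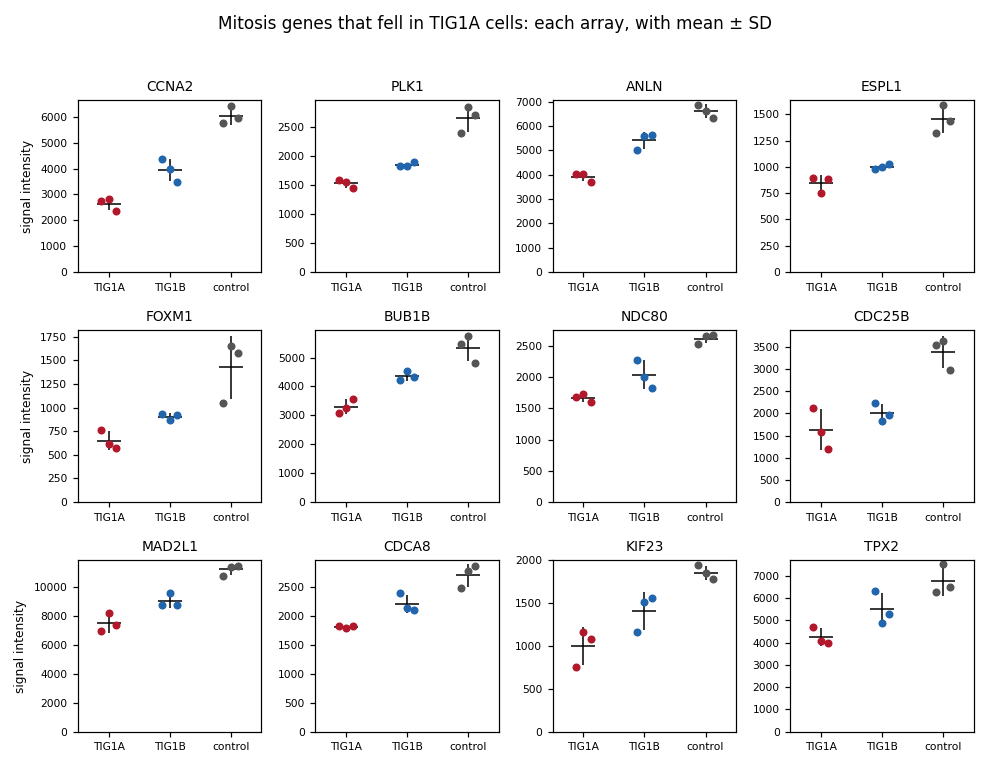
Signal intensity (vertical axes, linear and starting at 0) of the 12 mitosis genes called lower in TIG1A cells, on each of the 3 arrays of TIG1A, TIG1B and control cells (points), with the group mean and SD (black). All 12 genes show TIG1A points below every control point. In CCNA2, FOXM1, PLK1, ESPL1, ANLN, BUB1B, MAD2L1, NDC80 and CDCA8 the TIG1B points lie between, without overlap.

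Promoters of the members were searched for the CHR and the CCAAT box because these short elements are known to mark genes of G2 and M phase. RefSeq promoter windows (GRCh38.p14, 250 bases before to 50 bases after an annotated start) were matched for 44 of the 52 members, of which some had several starts. The stretches of 150 bases upstream of the start are shown for the 5 called members with a matched window and the smallest p. Capitals mark TTTGAA and TTTAAA, the CHR hexamers searched, and CCAAT, each on either strand (TTCAAA and ATTGG on the minus strand). No marked matches overlapped one another.
CCNA2 (chr4:121823884-121824033, minus strand): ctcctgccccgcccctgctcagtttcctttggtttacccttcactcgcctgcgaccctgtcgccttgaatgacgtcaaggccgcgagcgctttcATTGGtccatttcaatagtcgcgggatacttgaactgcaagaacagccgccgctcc
PLK1 (chr16:23678739-23678888, plus strand): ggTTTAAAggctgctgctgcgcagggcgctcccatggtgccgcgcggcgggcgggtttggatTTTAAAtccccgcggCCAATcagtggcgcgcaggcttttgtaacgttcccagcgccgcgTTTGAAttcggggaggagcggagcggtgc
ANLN (chr7:36389712-36389861, plus strand): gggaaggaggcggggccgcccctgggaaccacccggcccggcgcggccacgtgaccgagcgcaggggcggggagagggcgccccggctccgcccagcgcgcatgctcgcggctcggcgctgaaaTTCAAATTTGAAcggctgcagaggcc
ESPL1 (chr12:53268149-53268298, plus strand): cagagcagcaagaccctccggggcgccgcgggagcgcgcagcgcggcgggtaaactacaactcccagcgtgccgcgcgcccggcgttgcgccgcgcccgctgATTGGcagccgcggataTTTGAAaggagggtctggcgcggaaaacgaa
BUB1B (chr15:40160919-40161068, plus strand): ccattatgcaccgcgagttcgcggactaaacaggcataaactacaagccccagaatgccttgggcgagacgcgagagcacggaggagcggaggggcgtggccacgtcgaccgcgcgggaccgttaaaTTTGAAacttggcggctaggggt

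The hexamer nearest to the start began 29 bases upstream of it in PLK1, 20 in ANLN, 31 in ESPL1 and 23 in BUB1B. CCNA2 held a CCAAT box but neither hexamer in its window, and other forms of the CHR were not searched. Over all 44 members with a window, 38 (86.4%) held TTTGAA or TTTAAA, beside 21.6% of all genes kept on the arrays, and 36 (81.8%) held CCAAT, beside 42.8%. The other genes of mitosis described below, 78 of them with a window, lay between, with 56.4% holding a hexamer and 64.1% holding the box. TTTGAA alone was found in 72.7% of members and 14.0% of all genes kept, and TTTAAA alone in 34.1% and 10.9%. In the window of the first listed start, 26 members (59.1%) had a hexamer between 60 bases upstream and 20 bases downstream of the start, which 3.88% of genes kept had. Of the 12 members that fell, 10 had a window and 9 of these held a hexamer. A match describes the letters of the window and was not tested as a site.

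**Figure D3:**
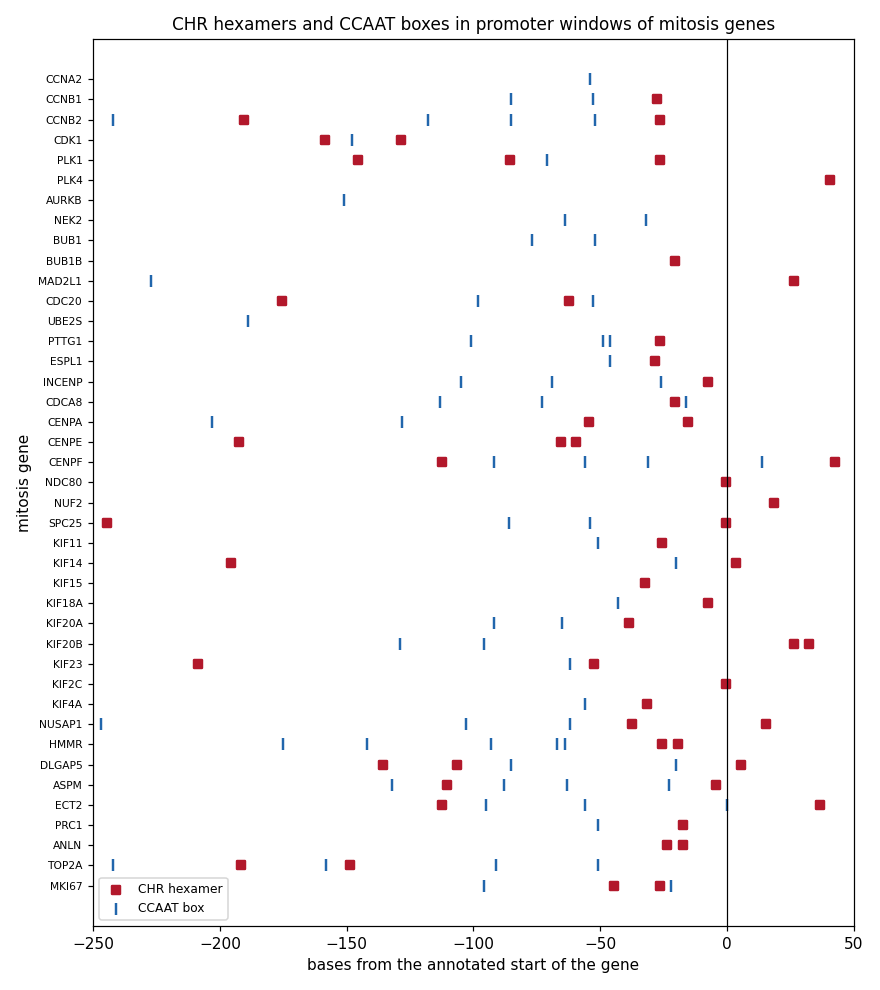
Positions of CHR hexamers (TTTGAA or TTTAAA, red squares) and CCAAT boxes (blue bars) relative to the annotated start (horizontal axis, bases), on either strand, in the first listed promoter window of 41 mitosis genes with at least 1 match (rows). Many red squares stand in a column just upstream of the start, and 26 genes have one between −60 and 20.

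The 40 members that were not called ranged in log2 difference from −0.59 to 0.17 in TIG1A against control cells. Adjusted p lay between 0.05 and 0.1 for 5 of them. These were ASPM, a spindle pole protein (log2 difference −0.54, adjusted p = 0.0514), KIF11, the kinesin that separates the spindle poles (−0.52, 0.0542), ECT2, which activates RhoA for cytokinesis (−0.59, 0.0547), SPC25, a subunit of the NDC80 complex (−0.59, 0.083), and PRC1, which bundles microtubules of the central spindle (−0.42, 0.0884). In each of these 5 genes all TIG1A arrays were below all control arrays.

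On their brightest probe sets, the core CDK1 and cyclin B genes differed much less than cyclin A2. A dim probe set of CDK1 that was higher is given below. CDK1, the kinase of mitotic entry, measured 9713, 11195 and 11393 in TIG1A cells, 10084, 13471 and 12334 in TIG1B cells, and 12277, 10596 and 11658 in control cells, and the groups overlapped. Its log2 difference in TIG1A against control cells was −0.10 (95% interval −0.46 to 0.26, adjusted p = 0.734). CCNB1, cyclin B1, measured 7563, 7694 and 6942 in TIG1A cells, 8426, 7897 and 7951 in TIG1B cells, and 7997, 10254 and 9907 in control cells. TIG1A arrays were below all control arrays but the difference of −0.34 did not pass the test (95% interval −0.66 to −0.01, adjusted p = 0.187). CCNB2 stood at −0.19 (adjusted p = 0.434), and CDC25C, the other phosphatase, at −0.12 (adjusted p = 0.729).

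Among the kinases the uncalled members lay between −0.41 for AURKB, the Aurora kinase of the passenger complex (adjusted p = 0.207), and −0.17 for AURKA, the Aurora kinase of the spindle poles (adjusted p = 0.458). Of the checkpoint genes, BUB1 stood at −0.36 (adjusted p = 0.165) and TTK, the MPS1 kinase, at −0.16 (adjusted p = 0.669). BUB3, which brings BUB1 and BUBR1 to kinetochores, stood at 0.03 (95% interval −0.39 to 0.46, adjusted p = 0.927). The gene lies in a stretch of chromosome 10 from GRK5 to CYP2E1 in which 63 kept genes had a median log2 difference of 0.32 in TIG1A against control cells. The ends of the stretch were set without a rule fixed beforehand, so this median is a description only. MKI67, the gene of the proliferation marker Ki-67, lies in the same stretch and stood at −0.58 (adjusted p = 0.134), with 4419, 3410 and 3502 in TIG1A cells, 5452, 3588 and 3701 in TIG1B cells, and 5024, 6218 and 5600 in control cells. The part of this stretch in either value was not tested.

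The partners of the anaphase-promoting complex were mixed. CDC20, its mitotic activator, stood at −0.41 (adjusted p = 0.216), and its ubiquitin-conjugating enzymes UBE2C and UBE2S at −0.18 and −0.23 (adjusted p = 0.671 and 0.384). PTTG1, the securin that holds separase inactive, was the only member with every TIG1A array above every control array, a pattern that 16.3% of all genes had. It measured 14693, 12806 and 13198 in TIG1A cells, 16893, 13868 and 13435 in TIG1B cells, and 12423, 11952 and 11759 in control cells. The log2 difference of 0.17 in TIG1A cells did not pass the test (95% interval −0.15 to 0.49, adjusted p = 0.484). The probe sets of PTTG1, BUB3, CENPA and FOXM1 are of a type whose probes can match other transcripts.

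The kinesins, motors of the spindle and midzone, had 9 members. All 9 had a log2 difference below 0 in TIG1A against control cells, from −0.92 for KIF23 to −0.37 for KIF4A, with a median of −0.52. In 7 of them all TIG1A arrays were below all control arrays, as in 17.9% of all genes. KIF23 alone passed the test. In the passenger complex, BIRC5, the survivin gene, stood at −0.33 (adjusted p = 0.134) and INCENP at −0.37 (adjusted p = 0.266). At the centromere, CENPE, the kinetochore kinesin, stood at −0.37 (adjusted p = 0.127), CENPF at −0.20 (0.363), NUF2, the partner of NDC80, at −0.26 (0.295), and CENPA, the histone variant of centromeres, at −0.17 (0.535). TOP2A, the topoisomerase that untangles sister chromatids, stood at −0.30 (adjusted p = 0.177).

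**Figure D4:**
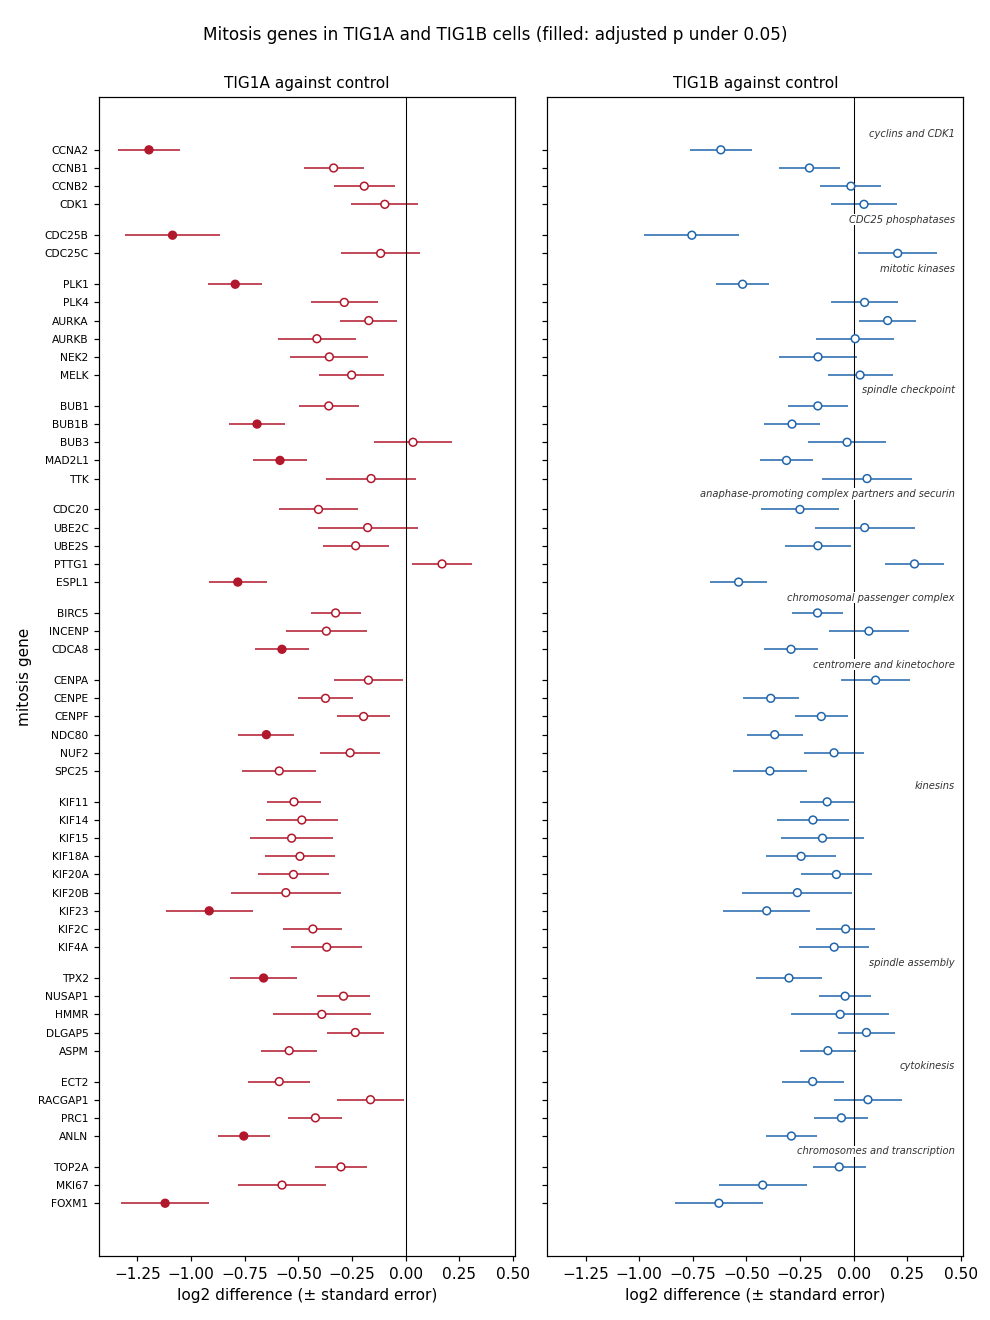
Log2 difference (horizontal axis, ± standard error) of each of the 52 mitosis genes, grouped by role, in TIG1A against control cells (left, red) and in TIG1B against control cells (right, blue). Filled circles mark an adjusted p under 0.05. On the left 50 points lie below 0 and 12 are filled, and on the right 39 lie below 0 and none is filled.

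Other probe sets of the same genes were mostly lower too in TIG1A cells, but not in TIG1B cells. There were 39 further probe sets kept, in 24 members, with a median of −0.23 in TIG1A against control cells. Of these 28 were below 0, beside 52.2% of all genes on their brightest probe set. In TIG1B against control cells 19 of the 39 were below 0, with a median of 0.05 and 0 called, and in TIG1A against TIG1B cells 31 were below 0, with a median of −0.27. In TIG1A against control cells, adjusted p was under 0.05 and the value lower for 5 of the 39, in CCNA2, ESPL1, ANLN, KIF14 and KIF2C. Of the 39, 1 was called higher, the dim probe set of AURKA given below. Of all 29977 probe sets kept, 960 were called lower and 858 higher. Among the 12 fallen genes 4 had 5 further probe sets, all below 0 in TIG1A against control cells, of which 3 were called lower. Those of MAD2L1 were not called. KIF14, a kinesin of cytokinesis, and KIF2C, which depolymerises microtubules at kinetochores, were called only on their dimmer probe set (−0.86 with adjusted p = 0.0314, and −0.90 with adjusted p = 0.0148). Some probe sets disagreed in direction, those of CDK1, AURKA, TOP2A and BIRC5 among them, which was noticed after the values were seen. In TIG1A against control cells the other kept probe set of TOP2A stood at 0.18. Those of BIRC5 stood at −0.30, 0.01 and 0.60, and those of MKI67 at −0.29, −0.28 and −0.20. A dim probe set of CDK1 measured 300, 293 and 278 in TIG1A cells, 570, 387 and 254 in TIG1B cells, and 97.2, 109 and 187 in control cells. Its log2 difference in TIG1A against control cells was 1.21 (adjusted p = 0.0752 from limma). The other CDK1 probe sets lay between −0.23 and −0.10 in that comparison. A dim probe set of AURKA measured 104, 121 and 185 in TIG1A cells, 161, 212 and 112 in TIG1B cells, and 41.6, 21.4 and 7.01 in control cells, below the array median on all 3 control arrays. It passed the filter only through the groups in which it was high, so its call is not read as a result. The bright probe set of AURKA measured 3166, 3349 and 3190 in TIG1A cells, 4616, 3834 and 3798 in TIG1B cells, and 3892, 3430 and 3623 in control cells.

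In TIG1B cells no mitosis gene passed the test, with 0 of 52 called against control cells beside 1.21% of all genes called lower and 0.637% called higher. An unadjusted p under 0.05 was found for 10 members with a lower value and 0 with a higher one, a share of 19.2% beside 11.2% of all genes called lower by that rule. The log2 difference was below 0 for 39 members, with a median of −0.15 against −0.01 for all genes. After median centring of the arrays these medians were −0.0025 over the members and 0.13 over all genes. In 16 members (30.8%, beside 14.6% of all genes) all TIG1B arrays were below all control arrays. Without control replicate 1, 1 of 52 members was called lower, beside 1.85% of all genes. A stricter filter on dim probe sets gave 4 members called lower (6.93% of all genes) and a variance trend 4 (3.54%). Both lines were compared with the same 3 control arrays, so their values are given side by side and not correlated.

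CCNA2 had the smallest adjusted p of the members in TIG1B against control cells, 0.0799, with a log2 difference of −0.62 (95% interval −0.95 to −0.29). PLK1 stood at −0.52 (adjusted p = 0.0863), ESPL1 at −0.54 (0.0928), CDC25B at −0.75 (0.133) and FOXM1 at −0.63 (0.165). All 12 genes called in TIG1A cells were below 0 in TIG1B cells, beside 51.1% of all genes. In 11 of them all TIG1B arrays lay below all control arrays, as in 14.6% of all genes. The 12 had been picked against these same control arrays, so these counts are not read as a result. CENPE stood at −0.37 in TIG1A and −0.39 in TIG1B cells against control cells, with no call in either. The mitotic kinases other than PLK1 were near 0 in TIG1B cells, from −0.17 for NEK2 to 0.16 for AURKA. PTTG1 was at 0.28 (adjusted p = 0.326), and PTTG1 and RACGAP1, a partner of KIF23 in the central spindle, were the members in which every TIG1B array was above every control array, a pattern of 12.2% of all genes.

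The 2 induced lines were then compared directly. In TIG1A against TIG1B cells 0 of 52 members were called, beside 0.584% of all genes. The log2 difference was below 0 for 50 members, with a median of −0.28 against 0.00 for all genes, and in 27 members all TIG1A arrays were below all TIG1B arrays, as in 14.2% of all genes. An unadjusted p under 0.05 was found for 14 members with a lower value and for 0 with a higher one, beside 7.32% of all genes called lower by that rule. CCNA2 had the largest difference, −0.58 (95% interval −0.91 to −0.25, adjusted p = 0.159), followed by KIF23 at −0.51 (adjusted p = 0.339), FOXM1 at −0.49 (0.363) and ANLN at −0.46 (0.172). At the other end were BUB3 (0.07), CENPE (0.01) and CENPF (−0.05). The stricter filter gave 2 members called lower (2.28% of all genes) and the variance trend 2 (1.35%).

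The shift was present on every TIG1A array. Relative to the control mean, the median over the 52 members was −0.45, −0.36 and −0.38 on the 3 TIG1A arrays, −0.16, −0.13 and −0.16 on the 3 TIG1B arrays, and 0.01, 0.03 and −0.03 on the control arrays. Members below their control mean numbered 49, 50 and 48 on the TIG1A arrays and 39, 38 and 36 on the TIG1B arrays. The 3 groups of array medians did not overlap. Over all genes the array medians lay between −0.02 and 0.04.

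**Figure D5:**
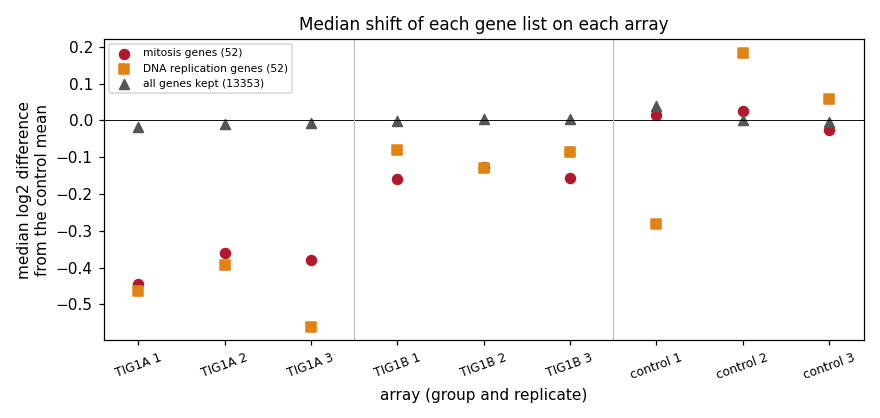
Median log2 difference from the control mean (vertical axis) of the 52 mitosis genes (red circles), 52 DNA replication genes (orange squares) and all 13353 genes kept (grey triangles) on each of the 9 arrays (horizontal axis, TIG1A, TIG1B and control). Mitosis genes lie between −0.45 and −0.36 on TIG1A arrays, between −0.16 and −0.13 on TIG1B arrays and within 0.03 of 0 on control arrays, whereas DNA replication genes are at −0.28 on control replicate 1.

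Other genes of mitosis, 88 of 90 listed being on the array, were also lower in TIG1A cells. Of these, 11 (12.5%) fell and 2 rose relative to control cells, beside 3.62% of all genes called lower and 3.39% called higher. Their median was −0.27, and 65 (73.9%) were below 0, as were 52.2% of all genes. TRIP13, the ATPase that remodels the checkpoint protein MAD2, measured 1932, 2031 and 1899 in TIG1A cells, 3799, 3510 and 3712 in TIG1B cells, and 3919, 5268 and 3893 in control cells. It was 2.21-fold lower in TIG1A cells (adjusted p = 0.0126). CEP55, a midbody protein, was 1.86-fold lower (adjusted p = 0.0174), GTSE1, a microtubule-binding protein expressed in G2 and S phase, 2.24-fold lower (0.0242), and SKA1, of the kinetochore, 1.96-fold lower (0.0281). The 8 condensin subunits, which compact chromosomes, were all below 0 with a median of −0.59, and NCAPD2 and NCAPG fell. The 13 subunits and regulators of the anaphase-promoting complex had a median of 0.08, and its subunit CDC26 rose 1.43-fold (adjusted p = 0.0393). CKAP2, a spindle microtubule protein, rose 1.64-fold (adjusted p = 0.0288). In TIG1B cells 1 gene (1.14%) fell, beside 1.21% of all genes, namely MAD1L1 of the spindle checkpoint (log2 difference −1.33, adjusted p = 0.0368). That gene lies in a stretch of chromosome 7 from FAM20C to OSBPL3 in which 100 kept genes had a median of −0.75 in TIG1B against control cells, and no member lies there. The ends of this stretch, too, were set without a rule fixed beforehand. MAD1L1 kept its call without control replicate 1 or TIG1A replicate 1 and lost it without any other single array. Without control replicate 1 or TIG1B replicate 1 the numbers called in TIG1A cells were 16 and 9, where 5.0% and 2.81% of all genes were called lower. Without any other single array they were 1 to 4, where 0.442% to 1.72% of all genes were called lower. No gene of this list was called between the 2 lines.

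DNA replication genes, which peak before mitosis, were set beside the members as the other large group of cell cycle genes. Of 52 on the array, 7 (13.5%) fell and 0 rose in TIG1A against control cells, beside 3.62% of all genes called lower and 3.39% called higher. Their median was −0.47, and 49 (94.2%) were below 0, as were 52.2% of all genes. POLD1, the catalytic subunit of polymerase delta, was 2.01-fold lower (adjusted p = 0.0313), MCM7, of the replicative helicase, 1.86-fold lower (0.0314), POLA2, of polymerase alpha-primase, 1.85-fold lower (0.0407), and POLD3 1.66-fold lower (0.042). In TIG1B cells the median was −0.12 and 1 gene, the flap nuclease FEN1, rose (log2 difference 0.92, adjusted p = 0.0437), beside 0.637% of all genes. The control arrays themselves were spread in this list, with 46 of 52 genes below the control mean on control replicate 1 and 1 of 52 on control replicate 2, at medians of −0.28 and 0.18. Without control replicate 1 the number of replication genes called lower in TIG1A cells was 17 (5.0% of all genes called lower). It was 4 (1.72%) without control replicate 3, 3 (2.81%) without TIG1B replicate 1 and 0 (0.442% to 1.59%) without any other single array. FEN1 kept its call in TIG1B cells without control replicate 1 and lost it when any other single array was left out. The mitosis members did not share this spread, with 26 and 20 of 52 below the control mean on those arrays. In promoters, 86.4% of the mitosis members, 56.4% of the other mitosis genes and 15.6% of the DNA replication genes with a window held a CHR hexamer.

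The number of members called in TIG1A against control cells depended on single arrays, whereas the median did not. It was 12 with all arrays and 1, CCNA2, without control replicate 2, TIG1A replicate 2 or TIG1A replicate 3 (0.442% to 0.532% of all genes called lower), while it was 4 to 6 (1.33% to 1.72%) without control replicate 3, TIG1A replicate 1, TIG1B replicate 2 or TIG1B replicate 3. The median stayed between −0.44 and −0.36 when each of the 9 arrays was left out, and it was −0.23 after median centring, which put all genes at 0.13. The number called was 24 with the stricter filter on dim probe sets (12.4% of all genes called lower) and 20 with a variance trend (7.12%). It was 2 after median centring (1.24%), 1 (CCNA2) from the 6 arrays of the comparison (0.232%) and 0 without a filter (0.0506%). CCNA2 kept its call in 19 of 21 other settings, ANLN in 13, PLK1 and ESPL1 in 12 each, FOXM1 in 10 and the others in 7 to 9. By the unadjusted t-test that the study's methods name, 30 members were lower in TIG1A than in control cells (12.3% of all genes), 16 in TIG1B than in control cells (9.47%) and 22 in TIG1A than in TIG1B cells (9.65%).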

How the data were processed

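RNA of 9 samples of HCT116 stable cells (TIG1A, TIG1B and control, 3 each) was hybridised to 1-colour HG-U133 Plus 2.0 arrays. The deposited values are signal intensities that the authors made with GCOS and scaled to a target of 500. Detection calls were not used here. The labels give 5 nM MFP for 24 h and the series text another dose, so the labels were followed. Intensities under 1 were set to 1 and log2 was taken. Of 54675 probe sets, 29977 were at or above the median of their array on at least 2 of 3 arrays of a group and were tested. Genes were named through the platform annotation, in which 41097 probe sets had 1 symbol, 1801 several and 11777 none. The 3 groups were compared pairwise with limma 3.58.1 in R 4.3.3 on all 9 arrays, with Benjamini-Hochberg adjustment over all probe sets tested and a threshold of 0.05. Intervals are 95%, and 3 arrays per group limit the precision.

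The text names 18 leading members, every member called, the 3 highest and 3 lowest members of each comparison, and up to 4 called genes of each other list, and any gene outside this rule was chosen after its values were seen. The members and lists were chosen with earlier results of these data known. The script was tested on simulated data. Alternatives were the normalisation, an offset of 50, the filter, the arrays in the fit, a replicate block, the variance model, the methods' t-test, the mean over probe sets, and leaving out each array.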

Additional observations from a re-analysis of the deposited data

How the results depend on the processing

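The 43 members and 14 genes of the other lists named in the report gave 143 results, which were recomputed under 21 other settings. Of these 3003 values, 2550 kept their direction and their side of the threshold, 304 lost a call, 87 gained one and 62 changed sign. The members called in TIG1A against control cells (12) are given with the share of all genes called lower in brackets. Median centring left 2 (1.24%), no filter 0 (0.0506%) and the 75th percentile filter 24 (12.4%). Only the 6 arrays of the comparison left 1 (0.232%), and a variance trend with robust estimation gave 20 (7.12%). The methods' t-test gave 2 after Benjamini-Hochberg adjustment (0.24%) and 30 before it (12.3%). Leaving out 1 array gave 1 to 10 (0.442% to 5.0%). In TIG1B against control cells (0), the 75th percentile filter gave 4 (6.93%), the variance trend 4 (3.54%) and the unadjusted t-test 16 (9.47%). The mean over probe sets gave 2 (1.7%) and leaving out 1 array 0 to 1 (0.112% to 1.85%). In TIG1A against TIG1B cells (0), the 75th percentile filter gave 2 (2.28%), the variance trend 2 (1.35%) and the unadjusted t-test 22 (9.65%). The causes of these changes were not tested. By construction the stricter filter tests fewer probe sets, and leaving out arrays or fitting 6 of them leaves fewer samples.

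Between control and TIG1A samples replicate numbers showed no pairing, with correlations of −0.0005, 0.0085 and 0.0084 between the deviations of samples with the same number. With the replicate number as a block the calls in TIG1A against control cells numbered 1 of the 52 members (CCNA2), 2 other mitosis genes and 0 DNA replication genes, and in TIG1B against control cells 0 other mitosis genes and 0 DNA replication genes. Of all genes, 1.07% were called lower in TIG1A against control cells with that block. The deviations of TIG1A and TIG1B samples with the same number correlated at 0.19, 0.049 and 0.064 for replicates 1, 2 and 3. With different numbers they correlated at −0.13 to 0.089, so a pairing of these 2 lines was not excluded. Leaving out replicate 1 of both lines was a setting chosen after seeing the data. It left 2 members called in TIG1A against control cells, 1 other mitosis gene and 0 DNA replication genes, beside 0.689% of all genes called lower. The member medians were then −0.36 and, in TIG1A against TIG1B cells, −0.25.

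For the other mitosis genes in TIG1A against control cells (2 higher, 11 lower), median centring gave 7 calls (3 higher, 4 lower), no filter 0, the 75th percentile filter 28, the 6 arrays 0, the variance trend 25, the t-test 1 after adjustment and 41 before it, and leaving out 1 array 1 to 16. With all arrays the shares of all genes called lower were, in the same order, 1.24%, 0.0506%, 12.4%, 0.232%, 7.12%, 0.24% and 12.3%. In TIG1B against control cells (1), these settings gave 0, 0, 7, 0, 8, 0 and 18, the offset 3, the mean over probe sets 2 and leaving out 1 array 0 to 3. There the 75th percentile filter, the variance trend and the unadjusted t-test called 6.93%, 3.54% and 9.47% of all genes lower. The offset called 2.22% lower and the mean over probe sets 1.7%. In TIG1A against TIG1B cells (0), the offset gave 2, the 75th percentile filter 4, the variance trend 3, the t-test 2 and 39, the mean over probe sets 2, and leaving out 1 array 0 to 1. The shares of all genes called lower were, in the same order, 0.344%, 2.28%, 1.35%, 0.15%, 9.65%, 0.328% and 0.0% to 0.285%.

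For DNA replication genes in TIG1A against control cells (7), median centring gave 0, the offset 11, no filter 0, the 75th percentile filter 22, the 6 arrays 0, the variance trend 19, the t-test 0 after adjustment and 19 before it, and leaving out 1 array 0 to 17. The share of all genes called lower was 5.56% with the offset and is given above for the other settings. In TIG1B against control cells (1), quantile normalisation gave 2, the offset 2, no filter 0, the 75th percentile filter 4, the 6 arrays 0, the variance trend 2, the t-test 0 and 7, the mean over probe sets 2, and leaving out 1 array 0 to 2. In TIG1A against TIG1B cells (0), the 75th percentile filter gave 4, the variance trend 6, the t-test 2 and 30, and leaving out 1 array 0 to 1.

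The members' median in TIG1A against control cells was −0.23 after median centring and −0.44 to −0.36 without 1 array. In TIG1B against control cells it was −0.0025 after centring, −0.11 with the mean over probe sets and −0.17 to −0.12 without 1 array, and in TIG1A against TIG1B cells −0.32 to −0.25 without arrays. Centring put the median of all genes at 0.13 in both comparisons with control cells, where it had been −0.03 and −0.01, and gave 671 genes higher and 165 lower in TIG1A cells in place of 452 and 484.

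No value that changed sign was called in the reported fit. In TIG1A against control cells, TTK was 0.0035 and RACGAP1 0.00057 after centring, CDK1 0.067 after centring and 0.17 with the mean over probe sets, CDC25C 0.048 after centring and −0.24 to 0.054 without 1 array, AURKA 0.87 with the mean over probe sets, which includes one below the array median on all control arrays, and BUB3 −0.042 after quantile normalisation and −0.047 to 0.12 without 1 array. In TIG1B against control cells, quantile normalisation gave CDK1 −0.020, AURKB −0.012 and UBE2C −0.020, centring gave BUB3 0.11, KIF11 0.022, TOP2A 0.078, CCNB2 0.13, NUF2 0.054, KIF2C 0.11, KIF4A 0.055, ASPM 0.026 and PRC1 0.088, and the mean over probe sets gave BUB3 0.0046, BIRC5 0.15, TOP2A 0.19, ASPM 0.044 and ECT2 0.28. Without 1 array, CDK1 lay between −0.043 and 0.17, AURKB between −0.13 and 0.11, BUB3 between −0.21 and 0.081, UBE2C between −0.14 and 0.18, CCNB2 between −0.070 and 0.085, NEK2 between −0.26 and 0.012, TTK between −0.062 and 0.25, INCENP between −0.12 and 0.21, CENPA between −0.0038 and 0.19, KIF2C between −0.099 and 0.025, and PRC1 between −0.094 and 0.013. In TIG1A against TIG1B cells the mean over probe sets gave CCNB2 0.083. Without arrays, UBE2S lay between −0.14 and 0.057, BUB3 lay between −0.046 and 0.24, CDC20 between −0.30 and 0.012, CENPE between −0.052 and 0.093, CENPF between −0.096 and 0.029, and MKI67 between −0.27 and 0.042. No member lay below the array median throughout a group, and 3 arrays per group limit the precision.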
